A study of Mus musculus with 6 samples.

Results

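Ubiquitin-conjugating enzymes, or E2 enzymes, were described in mouse CD4+ T cells before and 4 h after restimulation of the T cell receptor. The members were the protein-coding genes of GENCODE M21 whose symbol starts with Ube2 followed by a letter, together with Cdc34. This gave 38 of the 48440 genes in the deposited count table. The naming rule takes in Ube2cbp, which encodes a protein that binds UBE2C and has ligase activity of its own and is not an E2 enzyme, and Ube2v1 and Ube2v2, variants that lack the catalytic cysteine. It leaves out 9 listed genes with a related fold and other names.

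Ubiquitin reaches its targets through a relay: an E1 enzyme activates it, an E2 enzyme carries it on a cysteine, and an E3 ligase chooses the substrate. The E2 enzyme often decides which kind of ubiquitin chain is built, and separate members carry ubiquitin-like proteins such as NEDD8 and ISG15. In T cells, ubiquitin chains take part in signalling from the antigen receptor to NF-kB, in receptor turnover and in the cell cycle.

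Primary CD4+ T cells of wild-type mice, taken from spleen and lymph node, had all been activated for 3 days on plate-bound antibodies against CD3 and CD28 and then expanded for 5 days in IL2. The 3 unstimulated libraries came from such cells kept at rest, and the 3 stimulated libraries from such cells given antibody against CD3 and CD28 again for 4 h. The unstimulated cells are therefore previously activated cells and not naive ones. The series' design calls the replicates biological without naming separate mice or cultures, so the p-values measure only the spread between these libraries.

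Total counts ran from 29897720 to 30252923 reads per library. CPM is the read count scaled to the size of the library, and by total count alone 3 reads corresponded to 0.0992 to 0.1 CPM. The CPM values below used library sizes with a further scaling between libraries (TMM). On that scale 1 read of Ube2ql1 was 0.0314 CPM in unstimulated library 3 and 0.0351 CPM in stimulated library 2. Along the leading principal component, with 92% of the variance, the groups were apart. Il2, the cytokine induced by receptor signalling, rose from 0.475 ± 0.117 to 251 ± 54.0 CPM (SD, n = 3), and the early activation marker Cd69 rose from 11.3 ± 1.93 to 422 ± 22.7 CPM. The 6 CD4 T cell markers summed to 3391 to 3502 CPM in unstimulated and 1446 to 1534 CPM in stimulated libraries, and all 6 fell, with Cd4 at 984 ± 40.2 and 333 ± 16.7 CPM and Cd3e at 238 ± 15.4 and 99.3 ± 3.46 CPM. The CD8 T cell pair summed to 20.9 to 24.8 and 20.7 to 25.8 CPM. B cell markers summed to 66.7 to 69.1 and 28.4 to 29.2 CPM, and 4 of 5 fell. Myeloid markers summed to 6.22 to 8.24 and 2.93 to 3.58 CPM with S100a8 at 0, NK cell markers to 2.48 to 20.3 and 58.7 to 113 CPM (almost all of it Eomes, at 8.03 and 82.6 CPM on average, while Ncr1 and Klrb1c had 0 to 3 reads per library and Klrk1 did not pass), dendritic cell markers to 1.04 to 2.00 and 5.13 to 7.55 CPM with Siglech at 0, and erythroid markers to 0.605 to 1.92 and 0.248 to 0.827 CPM with Hba-a2 and Slc4a1 at 0. The part of these shifts in the values below was not tested. In bulk RNA a fall in CPM from fewer cells of a type and one from less RNA per cell cannot be told apart.

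Of the 38 genes, 34 passed the filter on low counts and were tested. The other 4 were Ube2ql1, with 1 to 4 reads in every library, and Ube2u, Ube2dnl1 and Ube2dnl2, which had 0 reads in all 6 libraries, a count that allows at most 3 reads, or about 0.1 CPM, in each. Among the 34, 22 rose (64.7%, where 38.4% of all 13314 tested genes rose), 6 fell (17.6%, against 39.1% of all tested genes) and 6 did not pass. Together 82.4% were called in either direction, close to the 77.5% of all genes. Calls came from the quasi-likelihood test of edgeR, adjusted by Benjamini and Hochberg's method over all tested genes, and the adjusted p of the called members ran from 3.99e-09 to 0.0269. The median log2 fold change of the tested members was 0.53, against -0.04 over all tested genes, and the median size without regard to sign was 0.72, against 0.90. When libraries were scaled by their size alone, which moved the median of all genes by -0.14, 19 members rose, 6 fell and 9 did not pass.

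Changes beyond 2-fold were found for 11 members, or 32.4%, against 35.6% of all tested genes. Of these, 9 rose (17.4% of all tested genes did) and 2 fell (18.2% of all tested genes did). With library size alone, 7 rose and 3 fell beyond 2-fold. The CPM values of the groups did not overlap for 29 of 34 members, or 85.3%, against 79.8% of all tested genes. The summed CPM of the 38 genes was 2871 ± 117 in unstimulated and 3200 ± 52.8 in stimulated libraries, and without Ube2h it was 2524 ± 93.5 and 3184 ± 53.0.

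**Figure D1:**
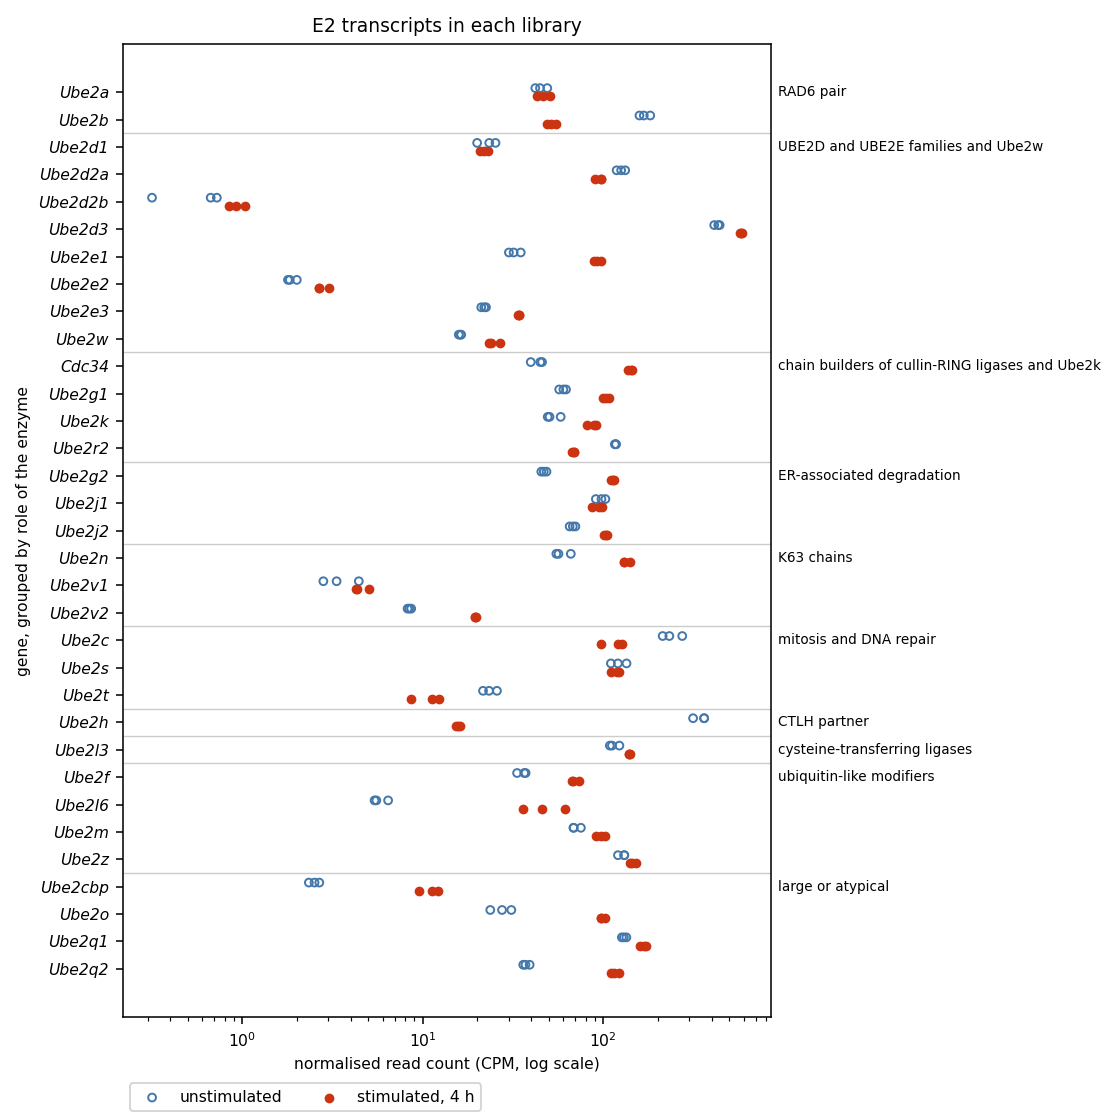
Normalised read counts (CPM, log scale) of tested E2 genes in each of the 6 libraries, grouped by the role of the enzyme. Open circles are the 3 unstimulated and filled circles the 3 stimulated libraries. Ube2h lies between 315 and 363 CPM in unstimulated and between 15.3 and 15.99 CPM in stimulated libraries, while Ube2l6 moves the other way.

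**Figure D2:**
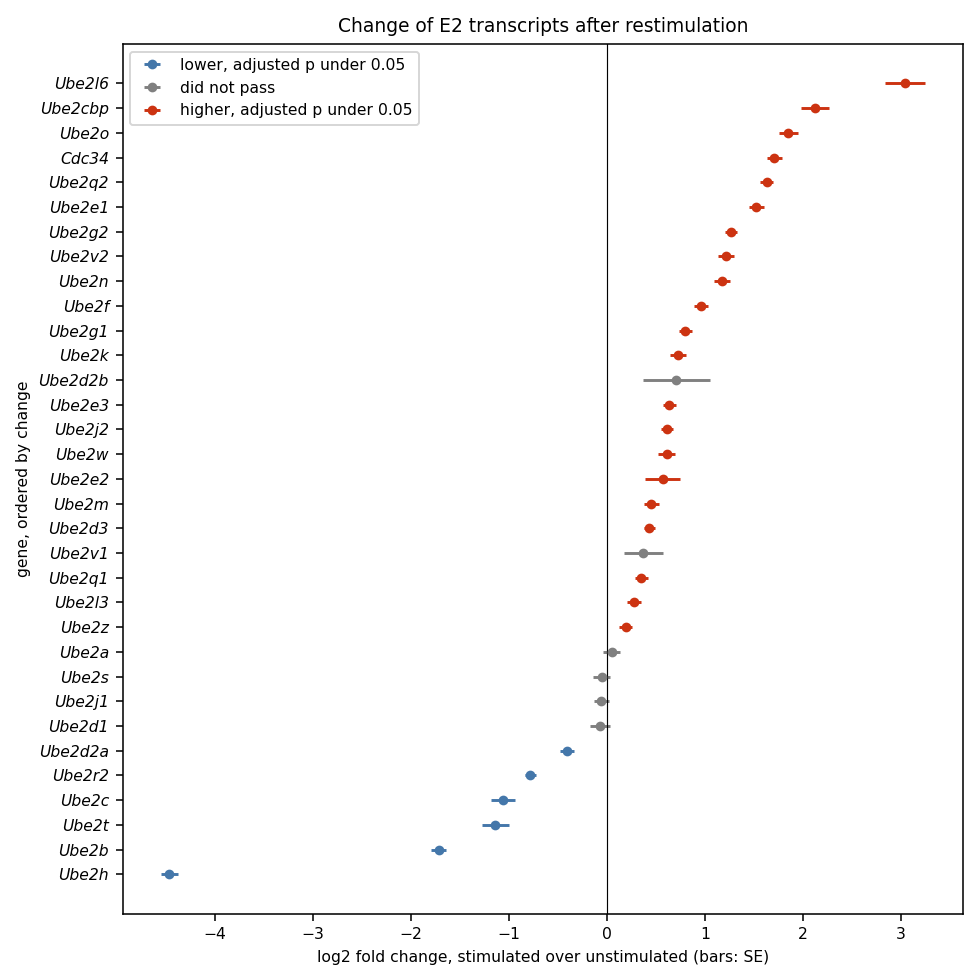
Log2 fold change (stimulated over unstimulated) of tested E2 genes with their SE, ordered by size. Points left of 0 are lower and points right of 0 are higher in stimulated cells, from Ube2h at -4.47 to Ube2l6 at 3.04.

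Promoter sequences are shown for 4 members whose transcripts fell. They are RefSeq sequences on GRCm38.p6, written 5′ to 3′ on the strand of the gene, up to 250 bases before the annotated start site and cut where the GENCODE gene begins. Capitals mark CCAAT boxes (CCAAT) in Ube2c at chr2:164769679-164769897 on the plus strand and in Ube2t at chr1:134962315-134962564 on the plus strand. In Ube2h, at chr6:30304540-30304789 on the minus strand, they mark a cyclic AMP response element (TGACGTCA). In Ube2b, at chr11:52000787-52001036 on the minus strand, they mark E-boxes (CACGTG).
Ube2c: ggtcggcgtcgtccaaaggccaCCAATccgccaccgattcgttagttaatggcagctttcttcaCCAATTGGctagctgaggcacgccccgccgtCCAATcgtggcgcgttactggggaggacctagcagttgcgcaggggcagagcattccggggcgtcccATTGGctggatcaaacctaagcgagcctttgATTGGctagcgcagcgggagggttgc
Ube2t: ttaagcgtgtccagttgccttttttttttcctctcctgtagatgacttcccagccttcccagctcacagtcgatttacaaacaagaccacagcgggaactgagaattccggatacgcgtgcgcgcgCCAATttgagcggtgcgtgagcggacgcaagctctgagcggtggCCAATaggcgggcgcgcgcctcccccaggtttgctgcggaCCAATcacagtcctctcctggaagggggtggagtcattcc
Ube2h: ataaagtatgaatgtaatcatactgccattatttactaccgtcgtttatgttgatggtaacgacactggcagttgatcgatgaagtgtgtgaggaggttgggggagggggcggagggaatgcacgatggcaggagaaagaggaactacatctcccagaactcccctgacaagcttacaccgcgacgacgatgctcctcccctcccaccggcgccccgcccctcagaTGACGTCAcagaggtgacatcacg
Ube2b: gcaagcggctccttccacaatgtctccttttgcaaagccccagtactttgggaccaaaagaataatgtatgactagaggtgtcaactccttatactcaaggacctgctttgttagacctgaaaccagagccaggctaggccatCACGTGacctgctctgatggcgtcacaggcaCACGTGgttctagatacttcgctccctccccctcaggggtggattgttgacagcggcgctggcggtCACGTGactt

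These 3 motifs were among 11 searched on both strands in the 250 bases before 32851 RefSeq start sites. The members had 42 start sites over 31 genes, and 7 genes had no entry. The Ube2c window held 6 CCAAT matches, at -228, -186, -183, -155, -88 and -57 from the start site, of which those at -186 and -183 overlap on opposite strands. Ube2t held 3, at -124, -80 and -40. Over all promoters 33.8% held at least 1 CCAAT match and 2.79% held at least 3. Ube2f, whose transcript rose, also held 3 CCAAT matches in 1 of its promoters. The printed Ube2b window held 3 E-boxes, at -107, -76 and -10, where 6.02% of all promoters held at least 1 and 0.0609% at least 3. At another annotated start site of Ube2b no E-box was found. Ube2q1, which rose slightly, held the E-box motif too. The response element of Ube2h lay at -24 in the printed window, and 1.55% of promoters held 1. Another annotated start site of Ube2h did not hold it, but held the forkhead letters GTAAACA at -194 (3.17% of all promoters). No member promoter held the AP-1 letters TGANTCA (6.75% of all promoters) or the NF-kB-like letters, GGGA and TTTCC with any 1 base between them (0.356%), and the interferon-response letters, GAAA and GAAA with any 2 bases between them (2.98%), were found in a member only in Ube2dnl1, which had no reads. A match is a run of letters in this window and was not tied to binding in these cells.

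Ube2h (ENSMUSG00000039159, chr6:30211289-30304539, minus strand) encodes the E2 partner of the CTLH ligase, the mammalian form of the yeast GID complex. It stood at 315, 363 and 362 CPM in unstimulated libraries 1 to 3 and at 15.7, 15.3 and 15.99 CPM in stimulated libraries 1 to 3. Every stimulated library lay far below every unstimulated one, and the spread within the stimulated group was under 1 CPM. The log2 fold change was -4.47 ± 0.087 (SE), which is 22.1-fold lower, with an adjusted p of 3.99e-09. Only 86 of the 13314 tested genes had a lower log2 fold change. In unstimulated cells Ube2h held 12.1% of the family's CPM, and in stimulated cells 0.490%. Its gene shares no exon with another gene, and its 1 near-identical pseudogene copy had 0 reads.

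The CTLH ligase itself was measured through 11 genes. Of these 6 fell, 3 rose and 2 did not pass, with a median log2 fold change of -0.55. Over all 13314 tested genes, 39.1% fell and 38.4% rose. Counts for this list and for those below are to be read beside these shares. The largest fall was that of Ypel5, a regulatory subunit, at 62.7, 60.2 and 61.6 CPM in unstimulated and 8.15, 6.88 and 8.03 CPM in stimulated libraries, a log2 fold change of -3.0. Ranbp10, a scaffold subunit, fell by 2.14 on the log2 scale. Armc8 and Gid8, parts of the core, rose by 0.78 and 0.50. Of the catalytic RING subunits' genes, Rmnd5a fell by 1.5 and Rmnd5b by 0.81, and Maea did not pass at 0.01. The substrate receptor Gid4 rose by 0.88, so the subunits did not move as 1 block. Rmnd5a, Rmnd5b, Maea and Gid4 were named after their values were seen.

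**Figure D3:**
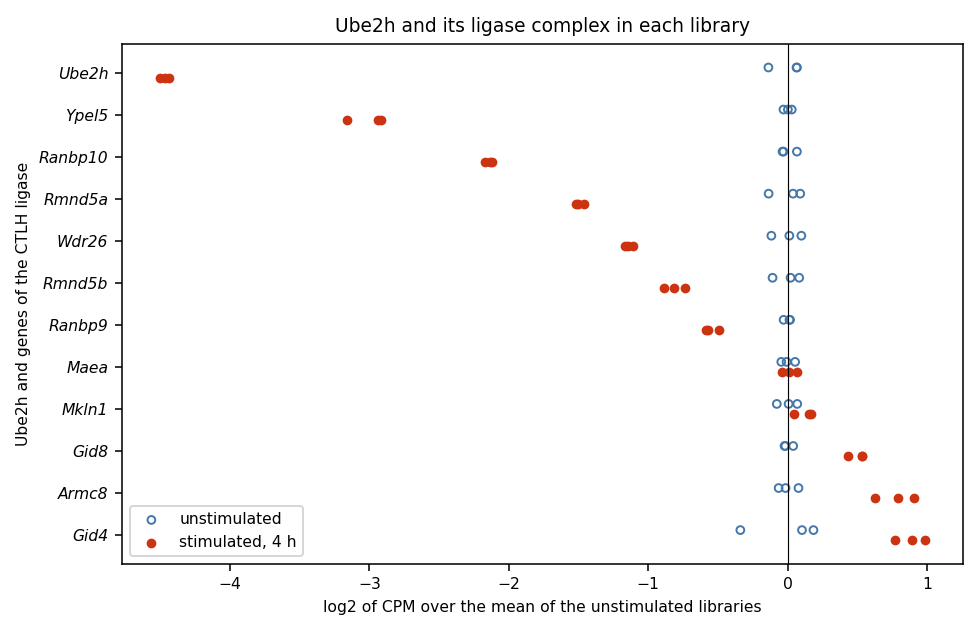
Log2 of the CPM of Ube2h and 11 genes of the CTLH ligase in each library, relative to the mean of the unstimulated libraries. Open circles are unstimulated and filled circles stimulated libraries. Ube2h and 6 ligase genes lie left of 0 in stimulated cells, Maea and Mkln1 near 0, and Gid8, Armc8 and Gid4 to the right.

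Ube2a and Ube2b are the mammalian forms of yeast RAD6, which works with RAD18 in DNA damage tolerance, with RNF20 and RNF40 on histone H2B and with the UBR ligases in the N-degron pathway. Ube2b (chr11:51985497-52000762, minus strand) stood at 159, 168 and 182 CPM in unstimulated and 48.8, 51.3 and 54.6 CPM in stimulated libraries. No libraries overlapped, and the log2 fold change was -1.72 ± 0.079 (SE, adjusted p = 9.27e-08). Ube2a stood at 42.0, 44.6 and 49.0 CPM against 43.0, 50.6 and 46.6 CPM. Its groups overlapped, with a log2 fold change of 0.05 ± 0.087 (SE, adjusted p = 0.631). The log2 ratio of Ube2a to Ube2b within a library moved from -1.90 ± 0.010 to -0.14 ± 0.110 (SD, n = 3). That is a 3.37-fold shift toward Ube2a with no overlap between groups, and the exact permutation test gave its smallest possible p for 3 against 3, 0.1 (two-sided).

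To show how far reads of the RAD6 pair can be told apart, the first 90 coding bases of GENCODE M21 transcripts are given, with the 25 bases that differ in capitals.
Ube2a: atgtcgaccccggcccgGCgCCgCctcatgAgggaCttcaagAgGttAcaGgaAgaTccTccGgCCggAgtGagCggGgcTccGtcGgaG
Ube2b: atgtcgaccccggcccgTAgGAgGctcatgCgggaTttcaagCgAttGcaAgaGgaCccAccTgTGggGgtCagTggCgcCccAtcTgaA

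Over the whole coding sequence 77.63% of 456 bases were identical. Between 1 chosen transcript of each gene the longest shared stretch was 18 bases. The Ube2b transcript had 585 bases and the merged exons of Ube2b 2126, so the rest of these exons was not compared. Neither gene had a near-identical copy or an overlapping gene. Among 9 partners of the pair, 3 rose, 4 fell and 2 did not pass. The helicase-like ligase gene Hltf fell by 1.14 and the N-degron ligase gene Ubr2 fell by 1.00 on the log2 scale, while Rnf20, a histone H2B ligase, rose by 0.56 and Ubr1 by 0.22. With library size alone, 1 partner rose and 4 fell.

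Cdc34 and Ube2r2 encode the paralogous E2 enzymes that extend Lys48-linked chains with cullin-RING ligases such as SCF. Cdc34 (chr10:79682195-79688398, plus strand) stood at 44.8, 39.7 and 45.8 CPM in unstimulated and 138, 145 and 143 CPM in stimulated libraries. Ube2r2 (chr4:41135743-41193380, plus strand) stood at 116, 118 and 117 CPM against 68.7, 68.5 and 67.2 CPM. Both differences left a gap between the groups, in opposite directions. Cdc34 rose 3.27-fold (log2 fold change 1.71 ± 0.075, SE, adjusted p = 7.21e-08), and Ube2r2 fell 1.72-fold (-0.78 ± 0.058, adjusted p = 2.03e-06). Their log2 ratio moved from -1.42 ± 0.116 to 1.05 ± 0.046 (SD, n = 3), a 5.56-fold shift toward Cdc34 (exact permutation p = 0.1, the smallest possible). Their coding starts are printed because 2 such similar genes moved apart, with the 18 of 90 bases that differ in capitals.
Cdc34: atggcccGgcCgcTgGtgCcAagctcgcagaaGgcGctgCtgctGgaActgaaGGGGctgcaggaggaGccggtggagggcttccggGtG
Ube2r2: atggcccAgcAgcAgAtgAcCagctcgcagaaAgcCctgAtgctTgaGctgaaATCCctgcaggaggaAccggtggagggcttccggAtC

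Identity over 704 aligned coding bases was 75.57%, with a longest shared stretch of 26 bases between 1 chosen transcript of each gene. The protein-coding retrocopy Cdc34b, 95.18% identical to Cdc34, had 18 reads over all libraries, 0.111% of the Cdc34 reads. Ube2g1, which also builds Lys48-linked chains with cullin ligases, rose by 0.80 on the log2 scale, and Ube2k, which makes the same linkage, rose by 0.73. Among 9 genes of the SCF core, 5 rose, 3 fell and 1 did not pass. Cand1, which exchanges the substrate receptors of cullin ligases, rose by 1.08, and the scaffold Cul1 rose by 0.83. The receptor cofactor Cks1b fell by 0.79 and the receptor Btrc fell by 0.75.

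Ratios were compared for 15 pairs in all, and in 13 of them the groups did not overlap. For single genes, the groups did not overlap in 79.8% of all tested genes. No such share was computed for ratios of other genes, so the count is not particular to these pairs. Each of the 13 pairs had an exact permutation p of 0.1, which is 0.115 after Benjamini-Hochberg adjustment. No pair could therefore pass 0.05 in this design. Besides the pairs above, the shift was largest for Ube2l3 to Ube2l6 (log2 ratio from 4.19 ± 0.204 to 1.57 ± 0.390, SD, n = 3), then for Ube2q1 to Ube2q2 (-1.27) and Ube2c to Ube2s (-1.01). The ratio of Ube2e2 to Ube2e3 overlapped between groups (exact p = 0.3).

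**Figure D4:**
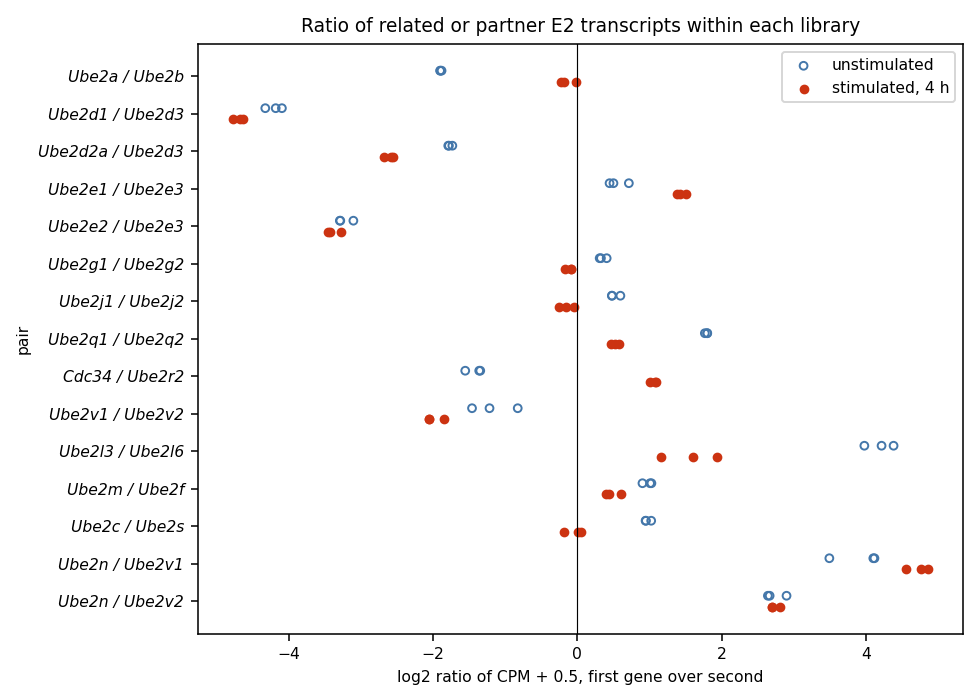
Log2 ratio of CPM + 0.5 within each library for the 15 pairs of related or partner genes. Open circles are unstimulated and filled circles stimulated libraries. The ratio of Cdc34 to Ube2r2 and that of Ube2a to Ube2b move right, and the ratio of Ube2l3 to Ube2l6 moves left. CPM is not divided by gene length, so only the shift of a ratio can be read and not its side of 0.

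Ube2c and Ube2s work in turn with the anaphase-promoting complex (APC/C), UBE2C starting chains and UBE2S extending them. Ube2c (chr2:164769898-164778822, plus strand) stood at 213, 233 and 274 CPM in unstimulated and 97.8, 126 and 120 CPM in stimulated libraries, without overlap. Its log2 fold change was -1.06 ± 0.122 (SE, adjusted p = 4.25e-05). Ube2s stood at 110, 121 and 135 CPM against 111, 122 and 119 CPM, with overlap and a log2 fold change of -0.05 ± 0.086 (adjusted p = 0.589). Ube2t, the E2 enzyme of the Fanconi anaemia DNA repair pathway (chr1:134962565-134974162, plus strand), stood at 21.6, 23.3 and 25.8 CPM against 8.61, 11.2 and 12.2 CPM. The groups were apart, and Ube2t fell by 1.14 ± 0.137 (SE, adjusted p = 5.31e-05) on the log2 scale. In Ube2c 22.8% of the exon bases lie under the opposite-strand gene Tnnc2, which had 0 to 2 reads per library, while 3.56% of those of Ube2s lie under Rpl28, a ribosomal protein gene with 30384 to 40720 reads.

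Genes in the lists around these enzymes were also mostly lower, where 39.1% of all tested genes fell and 38.4% rose. Of 16 APC/C genes 11 fell, 4 rose and 1 did not pass (median log2 fold change -0.53). The coactivator Fzr1 fell by 1.22 and the RING subunit Anapc11 by 1.53, whereas Cdc16 rose by 0.64 and Cdc26 by 0.44. Of 10 Fanconi genes 7 fell, 1 rose and 2 did not pass (median -0.51). Fanci, a substrate of the pathway's ligase, fell by 1.82 and the core gene Fancg by 1.74, while Fancf rose by 2.03. Of 20 cell cycle markers 12 fell, 6 rose and 2 did not pass, and with library size alone 14 fell and 4 rose. Top2a fell by 1.89 and Mki67 by 1.84, both genes of dividing cells, and the replication helicase genes Mcm2 and Mcm6 rose by 1.62 and 0.98. The part of cell cycle position in the values of Ube2c and Ube2t was not tested.

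Ube2n joins with Ube2v1 or Ube2v2 to build Lys63-linked chains, which carry signals from TRAF ligases to NF-kB. Ube2n stood at 55.0, 56.5 and 66.1 CPM in unstimulated and 130.0, 140.3 and 130.9 CPM in stimulated libraries. Ube2v2 stood at 8.24, 8.63 and 8.42 CPM against 19.5, 19.6 and 19.6 CPM. Both rose past 2-fold without overlap, by 1.18 ± 0.085 and 1.21 ± 0.085 (SE) on the log2 scale. Their log2 ratio was 2.74 ± 0.143 before and 2.74 ± 0.061 after stimulation (SD, n = 3), a difference of 0.0040 with overlapping groups (exact permutation p = 1). Ube2v1 stood at 4.42, 2.81 and 3.33 CPM against 4.29, 4.32 and 5.06 CPM, with overlap and an adjusted p of 0.116. Its value is uncertain: 61.5% of its exon bases are shared with the same-strand readthrough gene Gm20431, which had 0 or 1 read per library, and its 4 near-identical copies had 11.4% as many reads as Ube2v1 itself. Without unstimulated library 1 it passed the test, at 0.57 (adjusted p = 0.0212, where the alternatives ran from 0.0212 to 0.351).

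Ube2l3, which serves ligases that take ubiquitin on their own cysteine, among them the linear chain assembly complex, rose by 0.28 ± 0.069 (SE, adjusted p = 0.00479). It stood at 109, 112 and 123 CPM against 138, 138 and 140 CPM. This small rise has 2 limits. With library size alone it was 0.14 and did not pass (adjusted p = 0.108, the highest of its alternatives), and 28.6% of the exon bases lie under the opposite-strand gene Ydjc, whose reads went from 353 to 366 up to 2200 to 2809 per library. Of 12 genes of Lys63 and linear chain ligases, 6 rose, 1 fell and 5 did not pass. The signalling adaptors Traf3 and Traf2 rose by 1.5 and 0.70, and Sharpin, a subunit of the linear chain complex, fell by 0.48.

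The UBE2D and UBE2E enzymes serve many RING ligases and Ube2w modifies protein N termini. Of these 8 genes 5 rose, 1 fell and 2 did not pass. Ube2e1 (chr14:18282722-18331859, minus strand) moved most, from 34.9, 31.9 and 30.01 CPM to 92.8, 96.8 and 89.3 CPM, a log2 fold change of 1.53 ± 0.077 (SE, adjusted p = 1.60e-07) without overlap. The opposite-strand gene Nkiras1 covers 16.1% of its exon bases and had 220 to 330 reads per library. Ube2e3 rose by 0.64, Ube2w by 0.61 and Ube2e2, at only 1.79 to 2.01 CPM in unstimulated cells, by 0.57 (adjusted p = 0.0170). The Ube2e2 call was lost without unstimulated library 2 (adjusted p = 0.0555), without stimulated library 3 (0.0550) and with library size alone (0.0574), in a range over the alternatives from 0.0138 to 0.0574. At the stricter threshold of 0.01 the Ube2e2 call was lost as well.

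Ube2d3 stood at 412, 434 and 442 CPM in unstimulated and 582, 585 and 570 CPM in stimulated libraries, and rose by 0.43 ± 0.056 (SE, adjusted p = 8.91e-05). Ube2d2a went the other way, from 119, 126 and 132 CPM to 89.99, 96.9 and 96.7 CPM (-0.41 ± 0.070, adjusted p = 5.34e-04). Neither gene's groups overlapped, although the 2 coding sequences were 86.39% identical with a shared stretch of 42 bases. Ube2d1 did not pass at -0.07 (adjusted p = 0.543). Ube2d2b, at 0.316 to 0.723 CPM against 0.843 to 1.03 CPM, did not pass either, at 0.71 ± 0.344 (SE, adjusted p = 0.0880), though its groups did not overlap.

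Ube2g2, Ube2j1 and Ube2j2 act in degradation of misfolded proteins at the endoplasmic reticulum (ERAD). Ube2g2 went from 48.5, 46.8 and 45.4 CPM to 110, 115 and 113 CPM, 2.40-fold higher and without overlap (log2 fold change 1.27 ± 0.062, SE, adjusted p = 1.41e-07). Other annotated genes cover 10.3% of its exon bases. Ube2j2 rose by 0.61 from 65.1 to 70.1 CPM up to 101 to 106 CPM. Ube2j1 stood at 91.0, 97.8 and 103 CPM against 87.1, 94.9 and 98.0 CPM, and its overlapping groups gave an adjusted p of 0.493. Of 10 ERAD ligases and partners 3 rose, 4 fell and 3 did not pass. Aup1, which recruits UBE2G2 to the membrane, rose by 0.41, while the ligase genes Rnf145 and Rnf185 fell by 0.68 and 0.34.

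Of the enzymes that carry ubiquitin-like proteins, Ube2m and Ube2f for NEDD8, Ube2l6 for ISG15 and Ube2z for FAT10 rose, although the Ube2z call was lost with library size alone. Ube2l6 (chr2:84798828-84810335, plus strand) moved most of all members in this direction. It stood at 6.43, 5.53 and 5.41 CPM in unstimulated and 61.5, 35.7 and 45.7 CPM in stimulated libraries, with no overlap but a wide spread after stimulation. The rise was 8.23-fold, a log2 fold change of 3.04 ± 0.206 (SE, adjusted p = 2.69e-06). The modifier Isg15 stood at 3.79, 2.56 and 3.52 CPM against 501, 261 and 349 CPM, and its protease Usp18 at 4.55, 4.43 and 3.46 CPM against 257, 125 and 154 CPM. In all 3 genes stimulated library 1 was the highest, library 3 the next and library 2 the lowest.

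All 6 genes of the ISG15 and FAT10 pathway rose (5 with library size alone), as did all 10 interferon-stimulated genes listed (median log2 fold change 5.26), among them Oasl2 by 5.00 and Rtp4 by 3.62. Uba7, the E1 enzyme of ISG15, rose by 0.54 (adjusted p = 0.0349). It stood at 132, 119 and 113 CPM in unstimulated and 236, 135 and 157 CPM in stimulated libraries, with a wide spread after stimulation. Ubd, the FAT10 gene, was near the floor in unstimulated cells at 0.0846 ± 0.0665 CPM and stood at 7.66 ± 2.05 CPM after stimulation. Ube2z, the E2 enzyme of FAT10, rose by 0.19 ± 0.067 (SE, adjusted p = 0.0269), from 121 to 131 CPM up to 141 to 151 CPM. That call was lost without unstimulated library 2 (adjusted p = 0.0609), unstimulated library 3 (0.0750), stimulated library 1 (0.0797) or stimulated library 2 (0.0606), and with library size alone (0.481). At the stricter threshold of 0.01 Ube2z lost its call as well. Over its alternatives the adjusted p ran from 0.00982 to 0.481.

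Ube2f rose by 0.96, from 33.3 to 37.1 CPM up to 67.1 to 73.3 CPM, and Ube2m by 0.45, from 68.4 to 75.2 CPM up to 90.9 to 103 CPM. Of 11 NEDD8 genes 8 rose, 1 fell and 2 did not pass, and with library size alone 5 rose and 1 fell. Among the neddylation cofactors, Dcun1d5 rose by 1.58 and Dcun1d4 by 0.90, and Dcun1d3 fell by 0.65. Of 15 SUMO pathway genes 7 rose, 4 fell and 4 did not pass, and with library size alone 7 rose and 6 fell. The protease Senp3 rose by 1.54 and the modifier Sumo2 by 0.83, and the ligase Pias3 fell by 2.71 and the protease Senp7 by 2.59.

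The large or atypical members formed another group in which all 4 tested genes rose. Ube2o, a large protein with both E2 and E3 activity (chr11:116537740-116581447, minus strand), went from 31.0, 27.5 and 23.7 CPM to 96.9, 102 and 97.3 CPM. Ube2q2 (chr9:55148854-55207529, plus strand) went from 39.1, 37.1 and 36.0 CPM to 115, 122 and 110 CPM. Ube2cbp (chr9:86307306-86464950, minus strand) went from 2.51, 2.34 and 2.67 CPM to 12.1, 11.2 and 9.51 CPM. None of these overlapped, and the log2 fold changes were 1.85 ± 0.098 for Ube2o, 1.63 ± 0.070 for Ube2q2 and 2.12 ± 0.147 for Ube2cbp (SE). The pseudogene Gm4895, a near-identical copy of Ube2q2, held 4.31% as many reads as Ube2q2. Ube2q1 rose less, by 0.35 ± 0.064.

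Upstream of the E2 enzymes, 8 of 10 E1 genes rose and 2 did not pass, with a median log2 fold change of 0.54. With library size alone, 5 rose and 1 fell. Mocs3, which activates URM1, rose by 1.13. Of 14 modifier genes 7 rose, 1 (Ubl5, by 0.30) fell and 6 did not pass. With library size alone, 5 rose and 4 fell. The 9 genes with a related fold outside the naming rule split into 4 that rose and 5 that fell. Rwdd1 rose by 1.41 and Atg3, the conjugating enzyme of LC3, by 0.55, while the ubiquitin-binding variant Uevld fell by 2.42 and Aktip fell by 0.95.

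**Figure D5:**
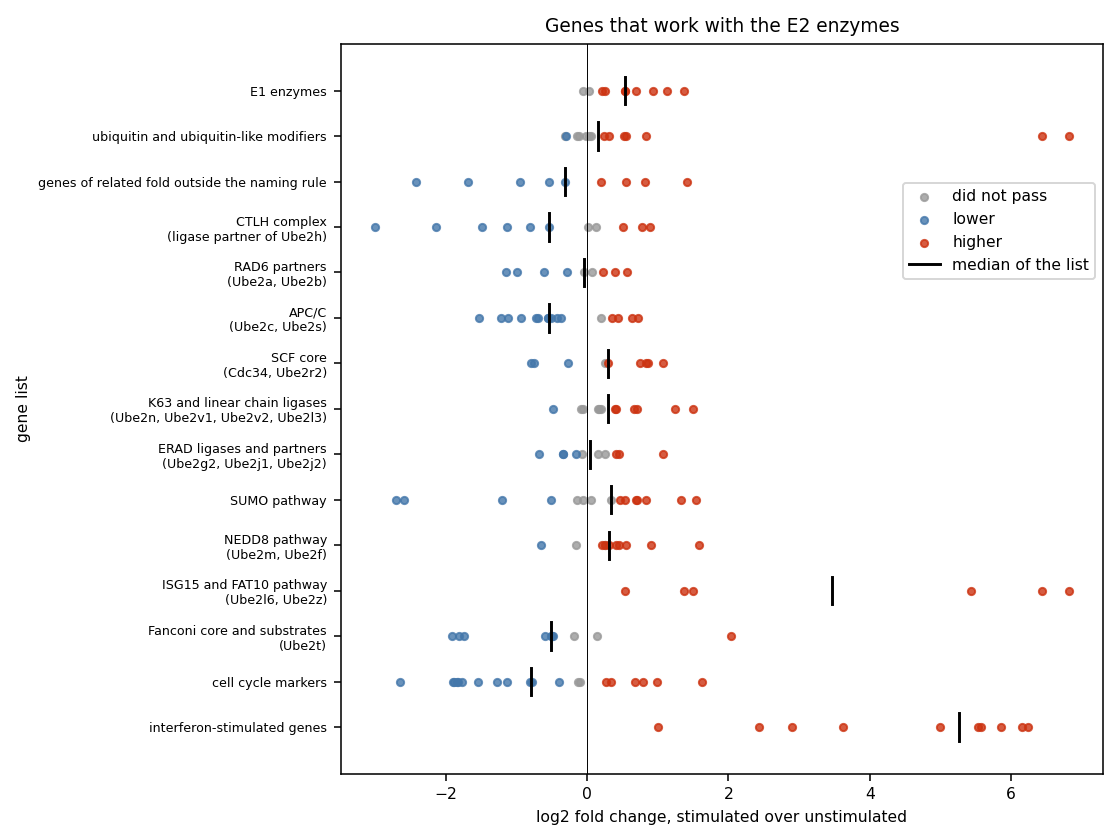
Log2 fold change (stimulated over unstimulated) of every tested gene in 15 lists of genes that work with or around the E2 enzymes. Each point is 1 gene, coloured by its call, and the black bar is the median of the list. The lists of the CTLH ligase (-0.55), the APC/C (-0.53) and the Fanconi genes (-0.51) have medians below 0, and that of the ISG15 and FAT10 pathway (3.46) lies far above.

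To set levels of different genes side by side, CPM was divided by the length of the merged exons. On this scale unstimulated cells had Ube2c at 92.3 ± 11.9, Ube2b at 79.8 ± 5.54 and Ube2h at 72.5 ± 5.75 CPM per kb (SD, n = 3) in the first 3 places of 38. The spreads of Ube2c and Ube2b overlapped, as did those of Ube2b and Ube2h. After stimulation Cdc34 came first at 90.2 ± 2.35, Ube2g2 second at 46.4 and Ube2c was at rank 3 with 44.1 ± 5.79 CPM per kb, a spread that takes in the mean of Ube2g2. Ube2b was then at rank 11 and Ube2h at rank 29. These ranks depend on the length used: with the length of 1 coding transcript per gene, Ube2d3 ranked 1 in both groups, Cdc34 moved from rank 10 to rank 3, Ube2b from 2 to 6 and Ube2h from 6 to 31. For Ube2d3 the merged exons span 24499 bases and the chosen transcript 738 bases, so its place in the order differs with the length used.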

How the data were processed

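RNA was sequenced in 6 libraries of mouse CD4+ T cells, 3 per group. The authors deposited whole-number read counts for each Ensembl gene and library. The labels' protocols give a column kit for RNA and a TruSeq preparation. The submitters' processing notes name GRCm38 as the build and STAR 2.5.2a, HTSeq and DESeq2 as tools. What each tool did, the annotation release and the strand setting are not stated there, so reads of overlapping genes cannot be told apart by strand.

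GENCODE M21 named 48058 of 48440 identifiers and left 382 without a name. Some items are not reported here. The members and lists were chosen with earlier results of these data known. edgeR 4.0.16 in R 4.3.3 was run on all genes: TMM scaling, filterByExpr by group, robust quasi-likelihood fit on group alone, two-sided test, Benjamini-Hochberg adjustment and a threshold of 0.05. glmTreat tested changes beyond 2-fold. CPM used TMM-scaled library sizes, and ratios within a library used CPM + 0.5. On simulated data of 13314 genes with 200 changed, the pipeline recovered 69% of 1.5-fold and 94% of 2-fold changes and called 6 unchanged genes. In the real comparison 10320 of 13314 genes were called, far more than were changed in the simulation. Its rates may therefore not carry over to this comparison.

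Named genes were all members and, from each list, up to 2 with the smallest p in each direction. Alternatives were RLE scaling, library size alone, no filter, 1 CPM in 3 libraries, DESeq2 1.42.0, limma-voom (limma 3.58.1), the replicate block, an adjusted p of 0.01, CPM + 0.1 and leaving out each library. Near-identical copies share at least 95% of bases over at least 80% of the coding sequence (BLAST+ 2.17.0). Coding sequences were aligned in place of the protein sequences named in the plan, which were not used here. Sequences came from RefSeq promoters (GRCm38.p6) and GENCODE M21 transcripts.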

Additional observations from a re-analysis of the deposited data

How the results depend on the processing

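For the 34 tested genes, 475 values under the alternatives were compared with the reported call: 463 kept direction and side of the threshold, 11 lost the call, 1 gained it and 0 reversed. Ube2e2, Ube2z, Ube2l3 and Ube2v1 account for the changes, and 30 genes kept their call under every alternative that gave them a value. Leaving out each library in turn gave 20 to 23 genes that rose, 6 that fell under each, and 5 to 8 not called. In an alternative chosen after seeing the data, the count was restricted to 19 tested members. These had neither 10% or more exon overlap nor a near-identical copy. Of them 11 rose, 3 fell and 5 were not called, where 22, 6 and 6 of all 34 were. The set is smaller, and why the balance of calls differed was not tested. The ratio of Ube2n to Ube2v2, 0.0040 with overlapping groups, changed sign with CPM + 0.1 (-0.028) and ran from -0.043 to 0.086 on leaving out each library; the cause was not tested. The remaining pair ratios kept their sign.

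The labels' replicate numbers do not say what same-numbered libraries share. Deviations from the group means correlated at 0.361, 0.0845 and 0.38 for numbers 1, 2 and 3, so the pairing was not taken as given, though all 3 unstimulated libraries correlated best with their own number. With the replicate number as a block, 22 members rose, 6 fell and 6 did not pass. Depth limits Ube2ql1, Ube2u, Ube2dnl1 and Ube2dnl2, and Ube2d2b and Ube2e2 rest on few reads.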
